A study of Oryctolagus cuniculus with 6 samples.

Results

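Single retained introns are introns that some transcripts of a gene keep as part of 1 long exon and that other transcripts of the same gene splice out between 2 exons. In the transcript-event tables from rabbit skin, each such intron appears as a pair of events, a retained form and a spliced form that share the same start and end at the same gene. An intron was kept when each form was listed in at least 1 of the 6 libraries. This gave 3569 introns out of 4128 that had either form, while 463 had the retained form only and 96 the spliced form only. The libraries came from skin of 30-day-old rabbits (Oryctolagus cuniculus): 3 from Prss53-/- animals made with CRISPR/Cas9, called knockout here, and 3 from wild-type animals of the same age. Prss53 encodes a trypsin-like serine protease. The labels give neither the edited allele, the sex and strain of the rabbits nor the skin region. The labels do not say whether each library stands for its own animal; the p-values below measure the spread between these samples alone, and that spread may be technical.

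Splicing removes introns while a transcript is being made, and the spliceosome recognises an intron by its splice sites and its branch point. A transcript that keeps an intron often stays in the nucleus or is degraded when the intron brings a premature stop codon into the reading frame, so retention is one of the ways a cell lowers the output of a gene. In mammals, retained introns are known to be shorter and richer in G and C than introns that are always removed.

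Values are FPKM, fragment numbers made relative to transcript length and to library size, as the authors deposited them. The retained share is the FPKM of the retained form as a percentage of both forms together, so 0% means that only the spliced form was listed and 100% that only the retained form was. The tables give no counts, so depth is unknown. The lowest value in the tables is 0.000171 FPKM and none is 0, so a form missing from a library is called not listed and entered the shares as 0. Such a gap may mean that the transcript was absent or that its assembly failed. No source used here gives the strand setting of the counting, and reads of overlapping transcripts on opposite strands therefore cannot be told apart. Coordinates are given as in the deposited tables, and their build is not named there. Genes carry Ensembl IDs without names, so the level of Prss53, skin markers and the roles of single genes were not analysed here. No genome of the build was used here, so no splice-site sequence is shown.

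The libraries differed in how many retained forms they listed before any genotype was considered. The knockout libraries listed the retained form of 1541, 1388 and 1427 of the 3569 introns, and the wild-type libraries that of 1286, 1823 and 2135. Wild-type replicate 1 listed the fewest of all and wild-type replicates 2 and 3 the most, so the wild-type range enclosed the knockout range. The spliced forms were far more even, with 2657, 2652 and 2669 listed in knockout skin, against 2617, 2672 and 2728 in wild type. Knockout replicate 3 stood apart in the shares themselves: over the tested introns the correlation of its shares was 0.756 with knockout replicate 1 and 0.772 with knockout replicate 2, against 0.809 for that pair of knockouts and 0.844 to 0.866 for pairs of wild types. These are Pearson correlations across introns, which are not independent replicates.

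The 3569 introns lay at 1896 assembled loci, 1072 of which held a single such intron and 824 held more, with at most 15 at 1 locus. Their median length was 708 bases, with quartiles at 319 and 1555 bases and extremes of 20 and 18123 bases. The 10029 introns beside cassette exons in the same tables had a median of 2624 bases, with quartiles at 850 and 7648 bases. The retained exons had a median length of 1323 bases, and the exons flanking the gap had medians of 134 bases upstream and 132 bases downstream. In 34.6% of the introns the length was a multiple of 3, the codon size, so that keeping the intron would not shift the frame. Of all the introns, 1097 lay on unplaced scaffolds. Many are not independent of each other: 1340 share their retained exon with another of the introns, because 1 exon can span several gaps. In such loci the FPKM of 1 assembled transcript is carried by several introns.

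Retained forms were listed patchily. The retained form was listed in 1 library only for 1209 introns and in all 6 for 355, whereas the spliced form was listed in all 6 libraries for 2074 introns and in 1 only for 633. Both forms were listed in all 6 libraries for 176 introns. To compare shares, introns were required to reach 1 FPKM, both forms together, in every library, and 2126 of the 3569 did. Of the other 1443, 1189 had neither form listed in at least 1 library, and 254 were listed everywhere but fell under 1 FPKM somewhere. At the edge of this minimum, an intron of chromosome 4 between exon ends 4897914 and 4900165 had a lowest summed level of 1.00 FPKM and was kept, and one of chromosome 13 between 64010730 and 64013693 fell to 0.999 FPKM in wild-type replicate 2 and was left out.

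Over all the tested introns, those under 150 bases had the highest mean retained share. The 182 tested introns of this length, out of 324, had a mean retained share of 40.7%, 40.7% and 42.7% in the knockout libraries and 40.1%, 42.5% and 43.7% in wild type. The 641 introns of 150 to under 500 bases, out of 1075, had mean shares of 16.6%, 14.8% and 16.6% in knockout skin, against 13.8%, 16.9% and 20.0% in wild type. The shortest class therefore lay above the next by more than the whole range between libraries, in every library of both genotypes. The 893 introns of 500 to under 2000 bases, out of 1509, had mean shares of 12.8%, 11.9% and 12.4% in knockout skin, against 11.1%, 14.8% and 16.4% in wild type. The 410 introns of 2000 bases or more, out of 661, had 14.6%, 12.0% and 10.3% in knockout skin, against 12.7%, 18.1% and 20.5% in wild type. Among the 3 longer classes the means lay close together and their order differed between libraries. Among the 174 tested introns with both forms listed in all 6 libraries, the shortest class was not the highest. The means over the 6 libraries there were 35.7% under 150 bases (19 introns) and 37.8% at 150 to under 500 bases (54 introns). They were 35.4% at 500 to under 2000 bases (75 introns) and 41.2% at 2000 bases or more (26 introns).

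**Figure D1:**
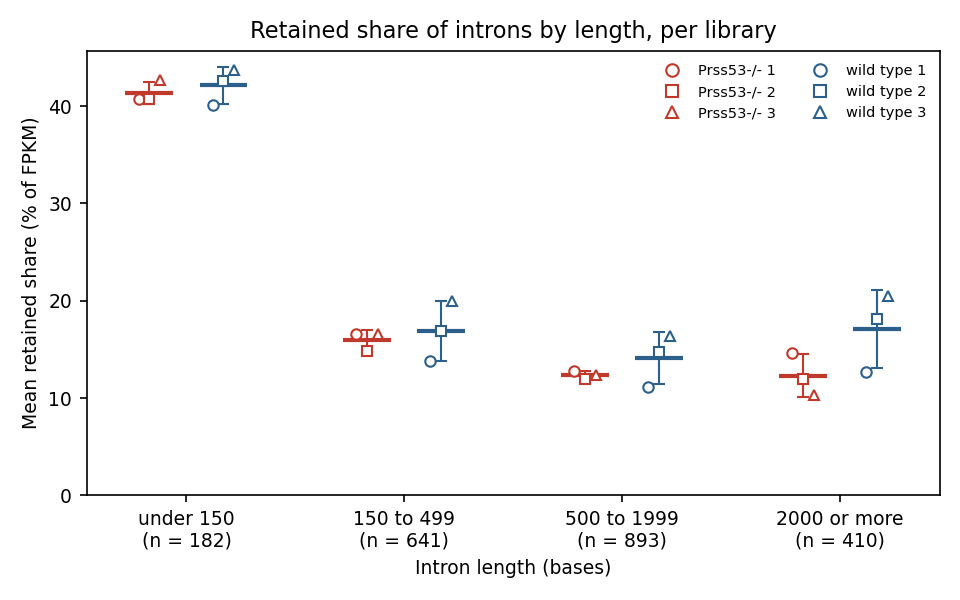
Mean retained share (% of FPKM, y axis) of the tested introns in 4 length classes (x axis, with the number of introns), 1 point per library, with bars for the mean and whiskers for the SD over 3 libraries of a genotype. All 6 libraries lie between 40.1% and 43.7% for introns under 150 bases and between 10.3% and 20.5% for introns of 2000 bases or more, where 2 wild-type libraries lie above all the others.

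In each class most introns sat well below these means. The median over introns of the share averaged over the 6 libraries was 19.4% under 150 bases, 6.54% at 150 to under 500 bases, 5.68% at 500 to under 2000 bases and 6.25% at 2000 bases or more. The mean was raised by introns that were mostly retained: 139 of the 2126 had a share over 50% in every library, and 57 of these were under 150 bases, which is 31.3% of that class. Retained forms of short introns were also listed more regularly. They were listed in all 6 libraries for 45.1% of the tested introns under 150 bases, against 14.7%, 11.8% and 10.5% in the 3 longer classes in order of length. Over all 2126 introns the Spearman correlation between length and mean share was -0.10, and in single libraries it lay between -0.04 in wild-type replicate 2 and -0.23 in knockout replicate 3. Such values are too weak to be read as a relation, and the points share libraries and, in part, loci. Split into 10 equal groups by length, the shortest group stood above the others in every library, and the other 9 lay between 9.30% and 22.1%.

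**Figure D2:**
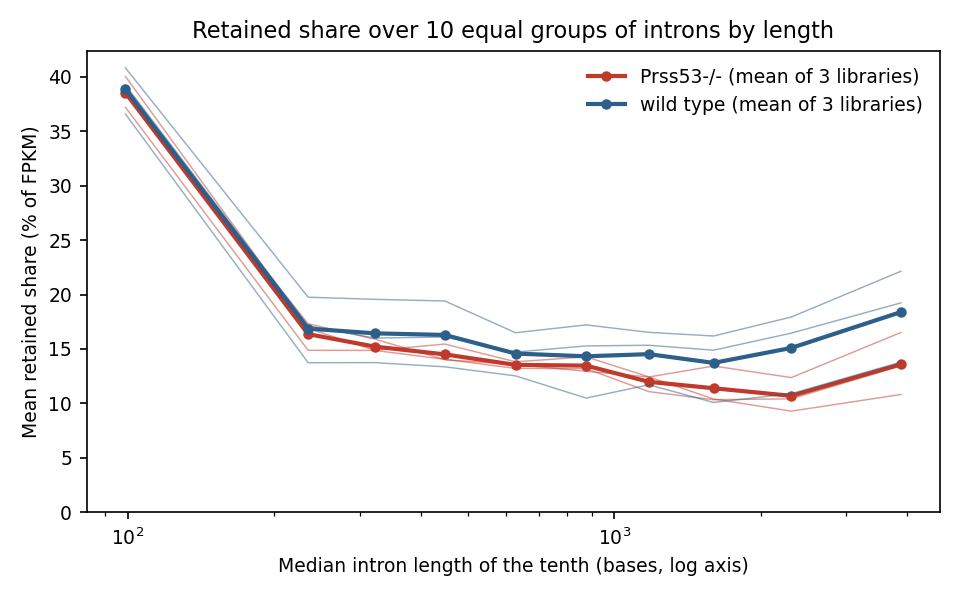
Mean retained share (% of FPKM, y axis) of 10 equal groups of tested introns ordered by length, drawn at the median length of each group (x axis, bases, log scale); thick lines are means of 3 libraries and thin lines single libraries. The shortest group, of 20 to 178 bases, lies between 36.6% and 40.8% in all libraries, and the next, of 181 to 274 bases, between 13.7% and 19.8%.

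Within the shortest class, gaps under 70 bases had the highest shares. These finer classes were chosen after the values were seen. Whether gaps this short are removed by splicing was not tested. The 31 tested introns under 70 bases, out of 43, had mean retained shares of 79.2%, 78.9% and 83.2% in the knockout libraries and 82.5%, 77.3% and 82.2% in wild type. At 70 to 99 bases the mean over the 6 libraries was 30.9% (80 introns), and at 100 to under 150 bases it was 37.0% (71 introns). Gaps under 70 bases differed from the rest in other ways as well. Their length was a multiple of 3 in 26 of 43 cases, or 60.5%, against 34.6% of all the introns, and their spliced form was listed in only 1 or 2 libraries in 35 cases, or 81.4%, against 25.4% of all.

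The 2 shortest tested introns show this pattern. An intron of 20 bases on chromosome X between 26497836 and 26497857 had a retained form at 12.7, 4.13 and 5.03 FPKM in knockout skin, against 11.0, 15.8 and 14.8 FPKM in wild type. Its spliced form was listed in knockout replicate 2 alone, at 2.39 FPKM. An intron of 21 bases on chromosome 12 between 20842732 and 20842754 had a spliced form in wild-type replicates 2 and 3 alone, at 4.83 and 2.27 FPKM, beside a retained form of 2.38 to 7.08 FPKM in knockout skin, against 4.96 to 11.9 FPKM in wild type. In both, the gapped form was the exception and the ungapped exon the rule. The longest tested introns were the reverse. The intron of 18123 bases on chromosome 4 between 4189475 and 4207599 had its retained form listed in wild-type replicate 2 alone, at 3.07 FPKM, and the intron of 14834 bases on chromosome 13 between 52964878 and 52979713 had it in wild-type replicate 3 alone, at 1.17 FPKM.

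Shares varied less with the level of the transcripts than with intron length. Level classes, chosen after the values were seen, group the introns by the mean FPKM of both forms together. The mean retained share was 18.9% at 1 to 5 FPKM (656 introns), 14.2% at 5 to 10 FPKM (713 introns), 17.1% at 10 to 50 FPKM (711 introns) and 28.4% at 50 FPKM or more (46 introns). Within each of these classes the introns under 150 bases had the highest mean share of the 4 lengths, with 41.2%, 33.6%, 47.1% and 66.8% in order of level, the last over 7 introns. The Spearman correlation between level and mean share was -0.08 over the 2126 introns.

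The most abundant introns with both forms listed everywhere show how differently introns of like length behaved. Among those of 2000 bases or more, the intron of chromosome 4 between 84668180 and 84672066 had a retained form at 92.4, 72.9 and 50.3 FPKM in knockout skin, against 62.0, 99.8 and 93.5 FPKM in wild type. Its shares of 43.5%, 36.7% and 20.8% in the knockouts overlapped those of 28.3%, 44.8% and 37.2% in wild type. The intron of chromosome 1 between 122810787 and 122813129 was mostly retained, with shares of 63.4%, 69.3% and 56.4% in knockout skin, against 69.3%, 72.4% and 73.0% in wild type. All its knockout shares lay below the wild-type ones, by less than 1 point at the nearest. Its retained form had 111, 99.8 and 67.8 FPKM in knockout skin, against 60.2, 57.8 and 73.4 FPKM in wild type. These retained levels overlapped between the genotypes. Its spliced form had 64.0, 44.3 and 52.5 FPKM in knockout skin, against 26.6, 22.0 and 27.1 FPKM in wild type, and was higher by 1.05 ± 0.18 on the log2(FPKM + 1) scale (SE, limma, adjusted p = 0.0498), close to the threshold. Among the introns under 150 bases, that of chromosome 12 between 4134389 and 4134533 was retained at 83.4%, 79.0% and 82.6% in knockout skin, against 76.1%, 87.9% and 90.6% in wild type, and the groups overlapped. None of the 12 most abundant introns, 3 per length class, passed the test of the share between genotypes (limma, lowest adjusted p = 0.364).

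Neighbouring introns of 1 locus could differ strongly in share. At a locus on an unplaced scaffold, the gap of 287 bases between 1555705 and 1555993 had shares of 5.57%, 18.6% and 15.7% in knockout skin, against 10.4%, 14.3% and 11.3% in wild type. The gap of 1230 bases next to it, between 1554405 and 1555636, had shares of 54.9%, 46.8% and 43.8% in knockout skin, against 59.2%, 67.0% and 58.4% in wild type. The second was thus retained more than the first in all 6 libraries. The 2 shares are not independent, since a retained exon of 1760 bases spans both gaps. The retained exon of 1374 bases of the second gap also flanks the spliced form of the first. At chromosome 7, 1 retained event likewise spans the adjacent gaps between 141623708 and 141624124 and between 141624214 and 141625163. Both gaps carried the same wild-type retained values of 80.8, 95.5 and 102 FPKM. The first of them had 47.1, 22.6 and 5.06 FPKM of the retained form in knockout skin and the second 35.4, 29.7 and 2.65 FPKM, and knockout replicate 3 was the lowest in both.

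Among introns with both forms everywhere and at least 5 FPKM in every library, the highest mean share belonged to an intron of chromosome X between 50010909 and 50014127, at 81.6%, 85.3% and 91.9% in knockout skin, against 99.4%, 99.6% and 89.3% in wild type. Among the lowest was an intron on an unplaced scaffold between 562881 and 563107, at 10.1%, 12.6% and 15.2% in knockout skin, against 12.0%, 13.4% and 12.0% in wild type. The groups overlapped in both.

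Between the genotypes, the mean retained share over all 2126 introns was 15.9% ± 0.714 in knockout skin, against 17.9% ± 2.99 in wild type (SD, n = 3 each). By library it was 16.7%, 15.3% and 15.8% in knockout skin, against 14.7%, 18.4% and 20.6% in wild type. Wild-type replicate 1 lay below all 3 knockouts and the other wild types lay above them, so the groups overlapped and the difference was smaller than the wild-type spread. In introns of 2000 bases or more the means were 12.3% ± 2.17 in knockout skin, against 17.1% ± 4.02 in wild type, and here too wild-type replicate 1, at 12.7%, lay among the knockouts. In introns under 150 bases they were 41.4% ± 1.13 in knockout skin, against 42.1% ± 1.87 in wild type. In bulk tissue, fewer cells of a type that retains an intron and less retained RNA per cell cannot be told apart.

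These means moved with the number of retained forms listed. Among the introns of 2000 bases or more, the retained form was listed for 46.1%, 35.4% and 30.5% in the knockout libraries and 36.6%, 58.0% and 68.8% in wild type, the same order of libraries as in the shares. Where a library listed both forms, the median share in this class was 18.6%, 19.8% and 20.9% in knockout skin, against 19.8%, 18.7% and 18.7% in wild type. For all lengths it was 17.8%, 18.3% and 18.9% in knockout skin, against 17.2%, 18.1% and 18.6% in wild type. These medians cover another set of introns in each library, between 717 and 1213 of them at all lengths. Over the 174 tested introns with both forms in all 6 libraries, the mean share was 36.4%, 35.7% and 35.9% in knockout skin, against 32.6%, 39.9% and 41.7% in wild type, so on a fixed set the wild-type libraries still differed and enclosed the knockouts.

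**Figure D3:**
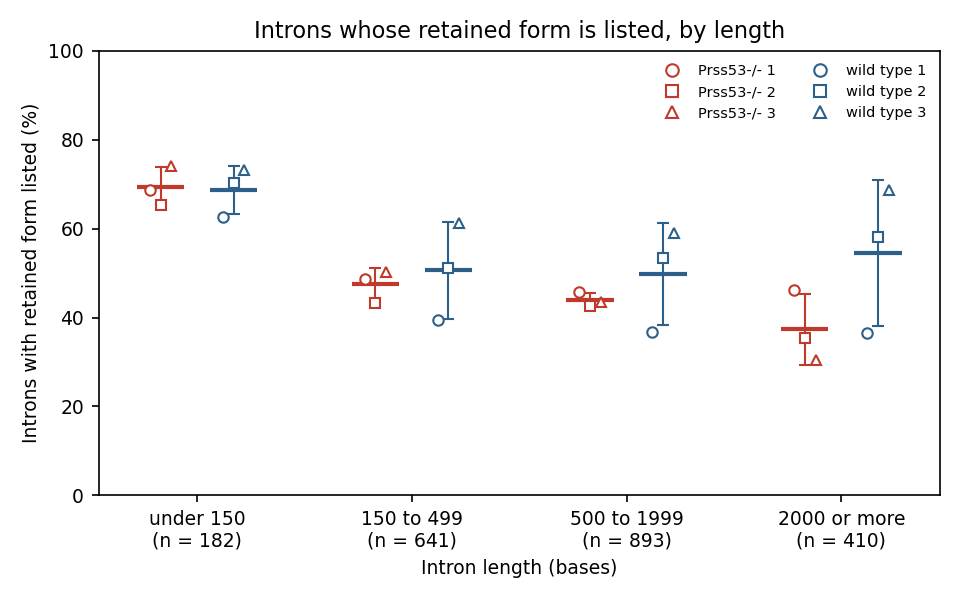
Share of the tested introns whose retained form was listed (%, y axis) in 4 length classes (x axis), 1 point per library, with bars for the mean and whiskers for the SD over 3 libraries. Under 150 bases the 6 libraries lie between 62.6% and 74.2%, and at 2000 bases or more they spread between 30.5% and 68.8%.

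Retained forms listed in 1 genotype alone were more often wild-type forms, except under 150 bases. The retained form of 36 of the 3569 introns (1.01%) was listed in all 3 knockouts and no wild-type library, while that of 92 (2.58%) was listed in all 3 wild types and no knockout. Over all 76612 transcript events these shares were 0.817% and 1.04%. The 2 are not like for like, since each event counts once there, while a retained exon that spans several introns counts once per intron here. On chromosome 7, for example, 1 wild-type-only retained exon from 150528388 counts for 3 introns. By length, the knockout-only and wild-type-only counts were 8 and 3 under 150 bases, 11 and 16 at 150 to under 500 bases, 13 and 37 at 500 to under 2000 bases, and 4 and 36 at 2000 bases or more. In the longest class this is 0.605% of introns for knockout alone and 5.45% for wild type alone. The spliced form showed less of this, with 18 introns listed in the knockouts alone and 26 in wild type alone. When the form had to reach 1 FPKM in each listing library, 22 retained forms were knockout-only and 51 wild-type-only.

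The counts depended on single libraries, since fewer libraries are then required to agree. Knockout-only introns numbered 88, 97 and 82 without knockout replicates 1, 2 and 3, and 64 and 65 without wild-type replicates 2 and 3. Wild-type-only introns numbered 182 without knockout replicate 1, and 259 and 156 without wild-type replicates 1 and 2. The number of retained forms per library moved with these counts, and its part in them was not tested. Events that retain several introns at once followed the same order of libraries in wild type, with 258, 213 and 252 listed in knockout skin, against 235, 350 and 410 in wild type.

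**Figure D4:**
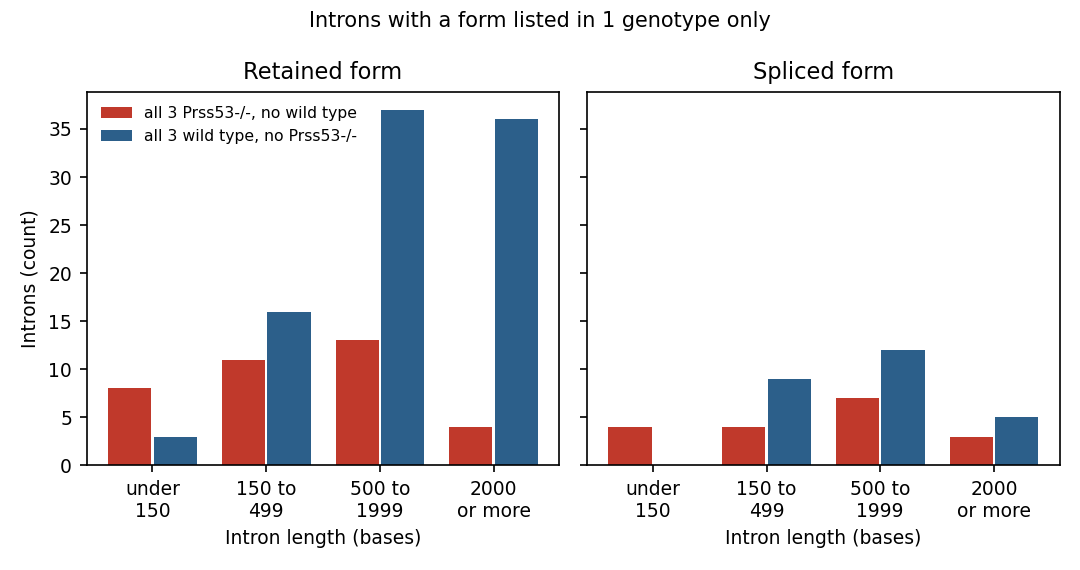
Number of introns (y axis) whose retained form (left panel) or spliced form (right panel) was listed in all libraries of 1 genotype and none of the other, in 4 length classes (x axis); red bars are knockout-only and blue bars wild-type-only. Retained forms of introns of 2000 bases or more number 4 in knockout alone and 36 in wild type alone.

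The retained share differed between genotypes in 13 of the 2126 introns, 2 higher and 11 lower in the knockouts (limma on the share, Benjamini-Hochberg adjusted p under 0.05 over 16305 introns, cassette exons and alternative first and last exons). That is 0.611% of the introns, against 0.675% called among all these elements, 0.294% higher and 0.38% lower. At an unadjusted p under 0.05 there were 133 introns, or 6.26%, against 6.61% of all elements. Groups did not overlap in 7.76% of the introns, against 8.91% of all elements. By direction, 54 introns (2.54%) lay wholly higher and 111 (5.22%) wholly lower in the knockouts, against 4.28% and 4.63% of all elements. Of the calls, 0.0941% of the introns were higher and 0.517% lower. The totals are near the background; by direction, fewer introns than elements at large were higher and slightly more were lower, a difference that was not tested. The median difference was -2.04 percentage points over the introns and -0.24 over all elements. The shares of first exons, and of last exons, sum to a fixed total within a locus, so a rise there goes with a fall. Retained shares are not bound in this way. By direction and by median, introns and all elements are therefore not like for like.

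The 13 introns lay at 11 loci, and 9 were of 2000 bases or more, a class that held 410 of the 2126 tested. In 8 of them 1 whole genotype lacked the retained form, and in 3 it lacked the spliced form. In 10 the retained exon also spans another of the introns, as it does for 1340 of all 3569. The count rested on the choice of fit and libraries: 2 passed with a mean-variance trend in the moderation, 6 with a minimum of 5 FPKM (all lower), 8 with 1 row per event, 1 among introns with both forms listed everywhere and 22 with a log2 ratio of the forms at a pseudocount of 0.1 FPKM (11 at 1 FPKM). It was 31, 18 and 34 without knockout replicates 1, 2 and 3 and 26, 16 and 33 without wild-type replicates 1, 2 and 3, with the higher ones outnumbering the lower without knockout replicate 2 (10 and 8) and knockout replicate 3 (19 and 15).

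**Figure D5:**
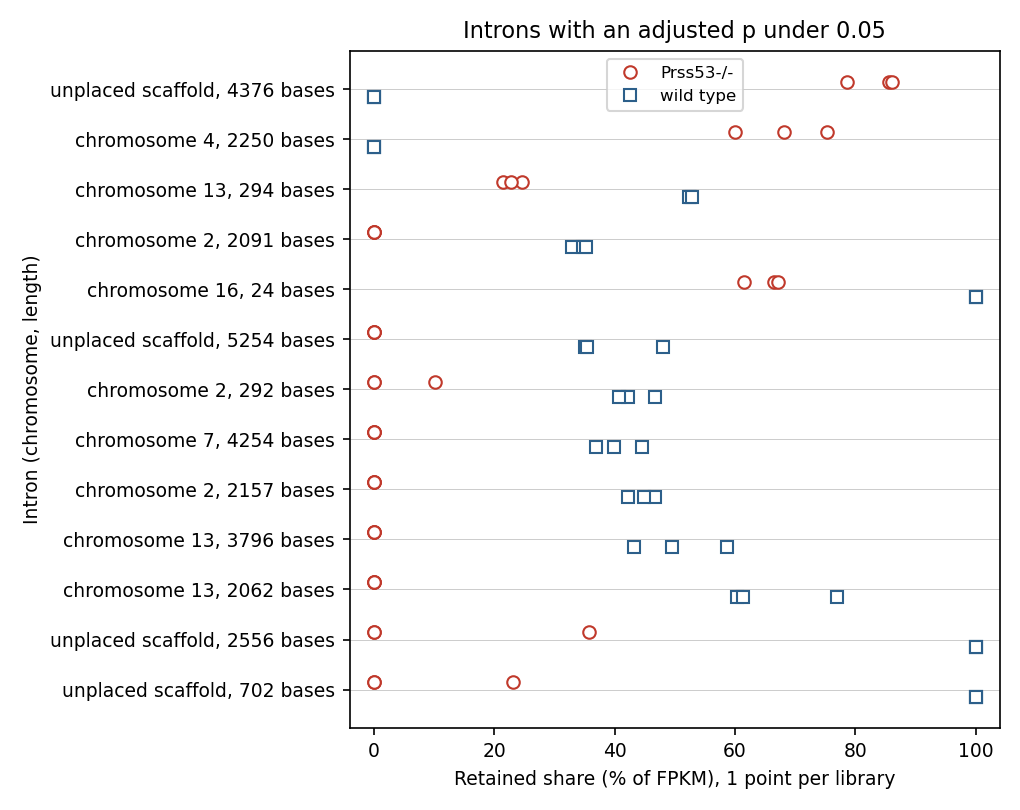
Retained share (% of FPKM, x axis) of the 13 introns with an adjusted p under 0.05, 1 row per intron (chromosome and length in bases), red circles for knockout libraries and blue squares for wild type. In all 13 the groups are apart, and in 11 a form is missing from 1 whole genotype, so that its points sit at 0% or 100%.

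The intron with the largest rise in share lies on an unplaced scaffold between 63245 and 67622, in ENSOCUG00000008417, and is 4376 bases long. Its retained form had 2.30, 2.16 and 3.81 FPKM in knockout skin and was not listed in wild type. Its spliced form had 0.625, 0.362 and 0.612 FPKM in knockout skin, against 2.91, 3.54 and 3.00 FPKM in wild type. Both forms therefore separated the genotypes, in opposite directions. The share was 78.6%, 85.7% and 86.2% in knockout skin, against 0% in wild type, a difference of 83.5 ± 3.42 percentage points (SE, limma, adjusted p = 0.00126), and it passed in all 6 fits that left out 1 library. The other rise was in ENSOCUG00000002250 on chromosome 4, between 4897914 and 4900165, at 2250 bases. Its retained form had 1.66, 1.27 and 1.71 FPKM in knockout skin and was not listed in wild type, and its spliced form had 1.11, 0.416 and 0.796 FPKM in knockout skin, against 1.00, 2.12 and 2.06 FPKM in wild type. Levels were low throughout and the spliced forms overlapped. The share differed by 67.8 ± 4.61 points (SE, limma, adjusted p = 0.00671) and passed in all 6 such fits, but not as a log2 ratio at a pseudocount of 1 (0.098) or with a mean-variance trend (0.0791).

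Among the falls, an intron of 294 bases in ENSOCUG00000002001 on chromosome 13, between 95862065 and 95862360, was the only one of the 13 with both forms listed in all 6 libraries. Its retained forms had 5.06, 2.55 and 1.74 FPKM in knockout skin, against 13.9, 19.8 and 17.3 FPKM in wild type. Its spliced forms had 15.6, 9.28 and 5.87 FPKM in knockout skin, against 12.6, 18.0 and 15.4 FPKM in wild type. Each value sums the listed events, of 3 retained and 3 spliced in all, so the libraries need not list the same ones. Its most abundant retained exon, of 4040 bases, is shared with the 3796-base gap below and was not listed in knockout skin. The knockout retained values therefore come from other events. In knockout replicate 1 and wild-type replicates 2 and 3, the spliced value equals the retained value of the gap between 95862476 and 95863131. The retained forms did not overlap between genotypes, while the spliced forms did. The share was 23.0% ± 1.51 in knockout skin, against 52.5% ± 0.287 in wild type (SD, n = 3 each), a difference of -29.6 ± 2.84 points (SE, limma, adjusted p = 0.0194). It passed in all 6 fits that left out 1 library, but not on the arcsine scale (adjusted p = 0.236), as a log2 ratio at a pseudocount of 0.1 (0.675) or 1 (0.12), or with a mean-variance trend (0.399). The gap of 3796 bases that starts at the same exon end and reaches 95865862 holds it. There the retained form was not listed in knockout skin and had 13.9, 17.1 and 15.7 FPKM in wild type, beside a spliced form at 9.82, 8.88 and 8.66 FPKM in knockout skin, against 18.3, 17.4 and 11.0 FPKM in wild type (limma on the share, adjusted p = 0.0187). In wild-type replicate 1 both introns draw on 1 transcript of 13.9 FPKM, so they are not separate observations. The longer gap missed the threshold without any 1 knockout and without wild-type replicate 2, with an adjusted p of at most 0.0766, and with the trend (0.128).

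The shortest intron to differ, of 24 bases in ENSOCUG00000026967 on chromosome 16 between 37119569 and 37119594, had its spliced form listed in the knockouts alone. Whether a gap of 24 bases is removed by splicing was not tested. Its spliced form had 3.68, 2.91 and 5.09 FPKM in knockout skin and was not listed in wild type. Its retained form, the ungapped exon, had 7.27, 5.94 and 8.10 FPKM in knockout skin, against 14.6, 11.0 and 12.1 FPKM in wild type. All knockouts lay below all wild types. The share was 66.4%, 67.1% and 61.4% in knockout skin, against 100% in wild type, a difference of -35.0 ± 3.12 points (SE, limma, adjusted p = 0.0165), and it passed in all 6 fits that left out 1 library but not with a mean-variance trend (0.0577).

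Another 3 falls passed in all 6 such fits but depended on other settings, and in each the retained form was not listed in the knockouts. On chromosome 2, the gap of 2157 bases between 125267843 and 125270001 had 3.19, 3.91 and 4.41 FPKM of it in wild type, and shares of 46.7%, 42.2% and 44.9% there (limma on the share, adjusted p = 0.00605). Elsewhere on that chromosome, the gap of 2091 bases between 124492294 and 124494386 had 0.966, 1.44 and 0.963 FPKM of it in wild type (limma on the share, adjusted p = 0.0117). On chromosome 7, the gap of 4254 bases between 150528388 and 150532643 had 2.33, 2.68 and 3.27 FPKM of it in wild type (limma on the share, adjusted p = 0.0117). The spliced form was listed in all 6 libraries in each of these 3, and its levels overlapped between genotypes in all of them. In the chromosome 7 gap, for example, it had 6.78, 3.23 and 2.83 FPKM in knockout skin, against 3.51, 4.58 and 4.07 FPKM in wild type. With a mean-variance trend the adjusted p was 0.118 for the 2157-base gap, 0.129 for the 2091-base gap and 0.128 for the chromosome 7 gap. As a log2 ratio at a pseudocount of 1 it was 0.216, 0.184 and 0.151 in the same order, and at 0.1 the 2157-base and 2091-base gaps also missed it, at 0.0677 and 0.0657. With 1 row per event the difference of the 2157-base gap shrank to -5.17 points (limma, adjusted p = 0.693).

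The largest falls in share rested on knockout libraries that did not agree. An intron of 702 bases on an unplaced scaffold, between 2313485 and 2314188, had shares of 23.1%, 0% and 0% in knockout skin, against 100% in all wild types (limma, adjusted p = 0.011). It missed the threshold without knockout replicate 2 or any 1 wild type, with an adjusted p of at most 0.0627. Its locus held 13 of the introns, and their gaps repeat in length: 5 are of 354 bases and 5 of 702 bases. An intron of 2556 bases on another scaffold, between 1099853 and 1102410, had 9.59 FPKM of the retained form in knockout replicate 1 and none listed in the other knockouts, against 37.3, 42.3 and 47.9 FPKM in wild type, while its spliced form was listed in the knockouts alone, at 17.2, 11.7 and 6.05 FPKM (limma on the share, adjusted p = 0.0352). It passed only without knockout replicate 1. In the other 5 fits (limma) the adjusted p was at most 0.159, and with a mean-variance trend it was 0.0877. This gap holds those between 1099853 and 1100793 and between 1100931 and 1102410. Their spliced forms had 67.5, 69.6 and 66.0 FPKM, and 67.5, 60.9 and 66.0 FPKM, in wild type. In knockout skin these were 46.4, 58.7 and 48.9 FPKM, and 54.5, 48.6 and 48.9 FPKM. The share of the outer gap leaves out these spliced forms. The second inner gap had 35.6%, 41.0% and 42.0% in wild type, against 22.5%, 0% and 0% in knockout skin (limma, adjusted p = 0.22).

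The remaining 3 of the 13 were less stable as well. On chromosome 13, the gap of 2062 bases between 74454605 and 74456668 had no retained form listed in knockout skin, against 17.4, 19.0 and 20.8 FPKM of it in wild type, with a spliced form at 13.3, 22.5 and 8.22 FPKM in knockout skin, against 11.5, 5.69 and 13.1 FPKM in wild type. It was the most abundant retained form missing from all the knockouts among the 13 (limma on the share, adjusted p = 0.0111), and it missed the threshold without any 1 knockout, at no more than 0.0658, and with a mean-variance trend (0.0902). On chromosome 2, the gap of 292 bases between 125270062 and 125270355, which shares its retained exon with the gap of 2157 bases, had shares of 10.1%, 0% and 0% in knockout skin, against 46.7%, 42.2% and 40.7% in wild type (limma, adjusted p = 0.026). It passed only without knockout replicate 1, and was otherwise at no more than 0.08; it missed the threshold on the arcsine scale (0.11), as a log2 ratio (0.22 at a pseudocount of 0.1 and 0.288 at 1) and with the trend (0.174). On an unplaced scaffold, the gap of 5254 bases between 485026 and 490281 had no retained form listed in the knockouts, against 0.74, 1.08 and 1.83 FPKM of it in wild type (limma on the share, adjusted p = 0.0317). It passed only without wild-type replicate 3, and was otherwise at no more than 0.106; as a log2 ratio at a pseudocount of 1 it was at 0.0994, and with the trend at 0.15.

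Among the introns with both forms in all 6 libraries, the next in order of unadjusted p did not pass. An intron of chromosome 1 between 147464005 and 147464998 had shares of 87.3%, 96.6% and 59.1% in knockout skin, against 27.4%, 38.1% and 21.2% in wild type. The groups were apart, with knockout replicate 3 nearest to wild type, and the difference was 52.1 ± 10.7 points (SE, limma, adjusted p = 0.183). In the other direction, an intron of chromosome 7 between 95180780 and 95181684 had shares of 9.18%, 8.17% and 7.52% in knockout skin, against 24.1%, 30.1% and 21.9% in wild type (limma, adjusted p = 0.175). An intron of chromosome 19 between 49368302 and 49370040 had 17.0%, 10.9% and 12.7% in knockout skin, against 27.5%, 35.2% and 27.8% in wild type (limma, adjusted p = 0.237). The groups were apart in each of these.

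The levels of the forms were tested in 1 fit over 37917 events with at least 1 FPKM in at least 3 libraries (limma on log2(FPKM + 1)). Of the 718 retained forms of these introns that entered, 17 (2.37%) were higher and 25 (3.48%) lower in the knockouts, against 0.997% and 1.06% of all events. Little can be read from this difference, since 40 of the 42 reached 1 FPKM in 1 genotype only. In all, 71 retained forms entered in this way. The filter alone sets their groups apart, though not all of them passed. Of the 248 retained forms listed in all 6 libraries, 1 passed. Of the 2412 spliced forms that entered, 15 (0.622%) were higher and 20 (0.829%) lower. Of these 35, 32 reached 1 FPKM in 1 genotype only, as did 53 of all the spliced forms that entered. The direction swung with the library left out: for retained forms 1 was higher and 21 lower without knockout replicate 1, 0 and 6 without knockout replicate 2, and 1 and 11 without knockout replicate 3, while leaving out wild-type library 1, 2 or 3 gave 3, 3 or 5 higher, with 0 lower each time. For spliced forms the count was 12, 6 and 15 without those knockouts and 6, 4 and 10 without those wild types. The median log2 fold change on the log2(FPKM + 1) scale was -0.16 for the retained forms that entered, -0.04 for the spliced forms and -0.08 for all events.

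Introns whose gap holds another of the introns had higher retained shares than the rest, a split chosen after the values were seen. The share of such a gap counts as spliced only the form that joins its 2 outer ends. Transcripts that splice an inner intron are left out, so the shares of nested and other gaps are not like measures. The part of this in the difference was not tested. Such nested gaps made up 633 of the 3569 introns, or 17.7%, and their share of a class grew with length, being 4.94%, 10.2%, 20.5% and 29.8% in the 4 classes. Of the 2126 tested introns 284 (13.4%) were of this kind, and so were 7 of the 13 that differed between genotypes. The 284 had a mean retained share of 22.8% ± 1.71 in knockout skin, against 27.7% ± 5.12 in wild type, and the other 1842 had 14.9% ± 0.662 in knockout skin, against 16.4% ± 2.67 in wild type (SD, n = 3 each). At 2000 bases or more, the nested gaps had 18.1% ± 2.96 in knockout skin, against 26.9% ± 5.79 in wild type, and the others had 10.3% ± 1.90 in knockout skin, against 13.8% ± 3.42 in wild type.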

How the data were processed

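Rabbit skin RNA (3 Prss53-/- and 3 wild-type samples) was extracted with Trizol and made into NEBNext Ultra libraries, per the labels' protocols. Among tools, bcl2fastq (version 2.17.1.14) and cutadapt appear in the submitters' processing notes. The deposited values are FPKM per transcript event, computed by the authors; which aligner, assembler, event caller and build they used is not given in the sources used here. Retained and spliced forms were paired by locus, start and end, and an event that lists several introns was kept once per intron, a reading chosen after its values were seen (3569 introns; 2925 with 1 row per event). Intron length is the gap between the 2 exons of the spliced form. Shares of introns, cassette exons, first exons and last exons with at least 1 FPKM in every library were fitted with limma 3.58.1 in R 4.3.3, genotype as the only term, two-sided, with 1 Benjamini-Hochberg adjustment at 0.05. Event levels were fitted with a mean-variance trend on log2(FPKM + 1), a scale that understates changes of low forms. Named introns were the 12 largest calls per direction, the 3 most abundant per length class, the 4 highest and 4 lowest shares, the 2 shortest and 2 longest tested, the 3 lowest p-values per direction with both forms everywhere, and the introns beside the minimum; of these, some are given only in counts. Splicing factor and cell type marker lists need gene names and were not analysed here. The introns, classes and lists were chosen with earlier results of these data known.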

Additional observations from a re-analysis of the deposited data

How the results depend on the processing

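The 13 introns that differed in share became 6 with a minimum of 5 FPKM, 22 with a log2 ratio and a pseudocount of 0.1, 1 among introns with both forms in all 6 libraries, 8 with 1 row per event and 2 with a mean-variance trend, the last 2 settings added after seeing the data. Leaving out 1 library gave 16 to 34, of a larger number of tested introns in each case. The 42 retained and 35 spliced forms that differed in level became 12 and 11 with no filter, 1 and 6 among forms listed in all 6 libraries, and 3 to 22 and 4 to 15 without 1 library. Replicate numbers are shared by the genotypes, but nothing in the labels says that they pair the samples. Deviations of same-numbered libraries correlated at only 0.0475, -0.000883 and 0.0252 in the shares and at -0.00645, 0.0878 and 0.0341 in the levels. With 3 libraries per genotype, such values cannot exclude a pairing. With the replicate number as a block, 0 introns passed by share (limma; 107 at an unadjusted p under 0.05), and 8 retained and 9 spliced forms by level. Knockout-minus-wild-type differences in mean share kept their sign except at 150 to under 500 bases without wild-type replicate 3 and under 150 bases, where -0.76 points became 0.628 with no minimum level and 0.78 with the median over introns. The median also gave -3.94 points at 150 to under 500 bases and -6.15 at 500 to under 2000 bases, against -0.89 and -1.72 for the mean. Without 1 library they ranged from -1.50 to -0.0011 points under 150 bases, -2.40 to 0.603 at 150 to under 500, -2.99 to -0.42 at 500 to under 2000 and -6.87 to -3.21 at 2000 or more, and the Spearman correlation of length and share from -0.13 to -0.06. Retained forms in 1 genotype only numbered 22 for knockout and 51 for wild type with at least 1 FPKM, and 54 to 97 and 125 to 259 without 1 library. The difference of the chromosome 7 intron between 95180780 and 95181684 turned from -17.1 to 5.71 points with 1 row per event. Of the 13 calls, 11 were lost with the trend, 7 and 4 as a log2 ratio at a pseudocount of 1 and 0.1, 2 on the arcsine scale, 1 of 9 with 1 row per event and 13 with the block; the cause was not tested. Depth is unknown, so the limit it sets on rare forms cannot be given.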
